A study of Mus musculus with 18 samples.

Results

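The genes examined were the nuclear genes for subunits of respiratory complexes II, III and IV and of ATP synthase (complex V) in mouse substantia nigra. They were chosen by symbol. The rule took Sdha, Sdhb, Sdhc, Sdhd and Cyc1, and every gene whose symbol starts with Uqcr, with Cox4 to Cox8 or with Atp5, and left out rows named as pseudogenes (-ps). It found 49 of the 55270 genes listed, of which 4 belonged to complex II, 9 to complex III, 19 to complex IV and 17 to complex V. Poly-A RNA was sequenced from 18 mice aged 3 months, 6 in each of 3 groups. Intact mice were wild type, and the labels name no virus or other treatment for them. AAV-GFP mice received an adeno-associated virus (AAV) to overexpress green fluorescent protein. AAV-SIRT3 mice received such a virus for SIRT3, a deacetylase of mitochondrial proteins. RNA came from tissue collected a month after virus administration. The labels do not say whether intact mice had a sham injection. The labels do not name the promoter, the serotype, the transduced cell type or the species of the SIRT3 coding sequence, nor the strain or sex of the mice. The series' design counts 6 mice per group, which matches the 6 libraries of each.

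Oxidative phosphorylation passes electrons from nutrients to oxygen and uses the resulting proton gradient to make ATP. Complex II (succinate dehydrogenase) oxidises succinate, also a step of the citric acid cycle, and hands the electrons to ubiquinone. Complex III moves them from ubiquinol to cytochrome c, complex IV (cytochrome c oxidase) passes them to oxygen, and complex V turns proton flow into ATP. Nuclear genes encode all of complex II and most subunits of the others, while mitochondrial DNA encodes a few catalytic core subunits. Dopaminergic neurons of the substantia nigra fire spontaneously and have long, heavily branched axons, and their energy demand is known to be high.

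Transcription of these genes is known to depend on shared factors, among them NRF1 and ETS-family factors such as GABPA. RefSeq promoter windows (GRCm38.p6, from 250 bases before to 50 bases after each start) were matched for 36 of the 49 genes, in 39 windows. The NRF1 motif, searched on both strands like the motifs that follow, was in 10 of the 39 windows (25.6%), against 4.6% of 32851 windows of all genes. An ETS motif, CCGGAAG, was in 33.3% of the subunit gene windows and 8.86% of all windows, and a YY1 motif, AANATGGC, in 12.8% and 6.05%. The estrogen-related receptor motif AAGGTCA was in 12.8% and 4.72%, and the SP1 motif GGGCGG in 35.9% and 35.7%. Each motif was counted by itself, whether or not its letters overlapped those of another motif. A match describes the letters in the window, not a bound site. Of the 36 genes, 4 had both an NRF1 and an ETS match and 8 had none of the 5 motifs. The 10 genes with an NRF1 match had a median log2 fold change of 0.22 between AAV-SIRT3 and intact libraries, and the 26 without had 0.32. Of these, 9 and 21 were called higher, against 11.3% of all genes. The 2 sets were not matched for transcript length, and the difference between them was not tested.

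Windows of 120 bases before the start are printed for 5 genes with an NRF1 match, to show how the motif sits in genes of complexes II, IV and V whose levels are described below. Each reads 5′ to 3′ on the strand of the gene, and capitals mark the motif letters (NRF1 in all, CTTCCGG for ETS on the other strand, CCGCCC for SP1 on the other strand). All 5 genes lie on the minus strand, in Sdha at chr13:74350241-74350360, in Sdhd at chr9:50603850-50603969, in Cox6a1 at chr5:115348959-115349078, in Atp5g2 at chr15:102671048-102671167 and in Atp5k at chr5:108434400-108434519.
Sdha: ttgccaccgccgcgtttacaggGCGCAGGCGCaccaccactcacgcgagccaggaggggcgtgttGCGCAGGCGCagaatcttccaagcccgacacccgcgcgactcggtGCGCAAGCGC
Sdhd: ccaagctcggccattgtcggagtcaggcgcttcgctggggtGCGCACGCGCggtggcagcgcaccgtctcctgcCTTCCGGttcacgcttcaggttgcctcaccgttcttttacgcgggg
Cox6a1: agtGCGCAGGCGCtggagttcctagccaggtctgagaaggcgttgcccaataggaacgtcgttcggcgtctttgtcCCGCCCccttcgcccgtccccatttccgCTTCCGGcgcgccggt
Atp5g2: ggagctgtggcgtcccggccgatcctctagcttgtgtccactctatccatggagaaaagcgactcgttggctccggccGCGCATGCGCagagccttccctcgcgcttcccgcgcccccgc
Atp5k: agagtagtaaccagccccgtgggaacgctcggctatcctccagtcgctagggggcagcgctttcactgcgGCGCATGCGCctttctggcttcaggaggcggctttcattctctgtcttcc
Sdha carried 3 NRF1 matches in this stretch, at positions -98, -55 and -10 from the start, and the other 4 genes carried 1 each. Sdhd and Cox6a1 had an ETS match as well, at -46 and -16.

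Depth, as reads recovered from the table in units of 1e+06, was 47.2 to 60.9 per intact library, 48.9 to 64.7 with AAV-GFP and 48.6 to 61.2 with AAV-SIRT3. All 10 dopaminergic neuron markers looked for were detected in every group. Sirt3 itself, the delivered gene, was 1801 to 2041 normalised reads in AAV-SIRT3 and 1684 to 1936 in AAV-GFP libraries, with 1733 to 1919.6 in intact ones. The AAV groups differed by a log2 fold change of 0.13 that did not pass the threshold (limma, adjusted p = 0.183), with the AAV-SIRT3 library above in 33 of 36 pairs. Because the labels do not give the species of the coding sequence, whether this row counts the delivered RNA was not tested. Normalised reads here are the deposited values, reads assigned to a gene divided by a size factor of the library. AAV-GFP replicate 2 and AAV-SIRT3 replicate 6 had the highest median level of the subunit genes in their groups. By Dixon's gap test this median stood apart from the rest of the group in AAV-GFP replicate 2 only. In both libraries, short transcripts were high relative to long ones. Thalamus markers were low in intact replicates 1, 3 and 5, and the summed level of the 10 markers ran from 63615 to 113222 in intact, 96995 to 110798 with AAV-GFP and 92992 to 118955 with AAV-SIRT3. Of these 10 markers, 6 were higher in AAV-SIRT3 than in intact libraries past the threshold and 0 were at 0 in any group. Over all genes 11.3% were called higher and 10.3% lower in that comparison, which applies to the next marker lists too. Of 10 microglial markers, 7 were higher in AAV-SIRT3 than in intact libraries (summed 18570 to 23124 against 16150.2 to 18045), with 18036 to 22694 in AAV-GFP. Of 10 endothelial and mural markers 4 were lower and 1 was higher (summed 13926 to 19277 against 15882 to 19261, with 16283 to 20877 in AAV-GFP). Of 7 anterior pituitary markers tested 4 were lower and 1 was higher (summed 15648 to 17059 against 14966 to 19456, with 13702 to 16699.6 in AAV-GFP). The median log2 fold change of these 7 was -2.61, a fall that the sums do not show. Of 8 choroid plexus markers 2 were lower (summed 1237 to 2849 against 1659.7 to 50270.1, with 1320.0 to 44543 in AAV-GFP). Of the astrocyte, oligodendrocyte, GABAergic, general neuronal, muscle and dopaminergic lists, each had at most 1 marker called higher and at most 1 called lower there. The dopaminergic markers summed to 41536 to 57343 in intact, 36642 to 47808 with AAV-GFP and 42840.0 to 50573 with AAV-SIRT3. Between AAV-GFP and intact libraries 1 of 10 was called lower (1.02% of all genes), and 1 of 10 had a log2 fold change above 0 (50.2% of all genes). The median there was -0.31, and 7 had an unadjusted p under 0.05 (limma), 0 of them higher. Between AAV-SIRT3 and AAV-GFP 0 passed (0.113% of all genes), with a median of 0.27 and 9 of 10 above 0 (48.6% of all genes). In that comparison 5 had an unadjusted p under 0.05 with AAV-SIRT3 higher (8.13% of all genes). Microglial markers were higher in AAV-GFP than in intact libraries for 5 of 10 (0.823% of all genes). Pituitary markers were lower there for 4 of 7 (1.02% of all genes), with a median log2 fold change of -2.65. The part of these cell types in the results below was not tested, except for thalamus. In bulk tissue, fewer cells of a type and less RNA per cell cannot be told apart.

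Among the 49 genes, 47 reached 10 normalised reads in at least 6 libraries and were tested with all other genes. Cox8c, a testis isoform, was at 0 in all 18 libraries, and Cox6c2, annotated as a processed pseudogene in GENCODE M21, averaged 2.15, 0.62 and 0.68 normalised reads in intact, AAV-GFP and AAV-SIRT3 libraries. Expression was compared between genes only per kilobase of transcript. In intact libraries Atp5b, the catalytic beta subunit of ATP synthase, was the most abundant with 36762 ± 1727 normalised reads per kilobase, followed by Cox4i1 with 24241 ± 1339.7 and Atp5a1 with 20780.0 ± 947 (SD over 6 libraries). The complex II genes ran from 1296 ± 37.8 for Sdhc, the lowest of the genes other than the tissue-restricted isoforms and Cox6c2, to 9699.9 ± 447 for Sdha, with 5280.2 ± 201 for Sdhb and 3623 ± 192 for Sdhd. The tissue-restricted isoforms of complex IV lay far lower, from 23.6 ± 12.3 for Cox7b2 to 321 ± 155 for Cox6a2. Together the 49 genes took 0.753 ± 0.0192% of all reads in intact libraries, 0.802 ± 0.0581% with AAV-GFP and 0.858 ± 0.0485% with AAV-SIRT3 (SD, n = 6 each).

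The subunit genes were higher in AAV-SIRT3 than in intact libraries, most of them by a similar, small amount. Of the 47 tested, 38 rose and 0 fell (limma, Benjamini-Hochberg adjustment over 19443 genes, threshold 0.05), against 11.3% of all genes called higher, 10.3% called lower and 21.7% called in either direction. All 47 had a fold change above 0, as did 49.1% of all genes, and the median was 0.30 on the log2 scale against -0.0049 over all genes. In 26 of the 47 the lowest AAV-SIRT3 library was above the highest intact library, which held for 5.01% of all genes. Between AAV-GFP and intact libraries 1 gene, Uqcrb, passed the threshold, against 0.823% of all genes called higher, 1.02% lower and 1.84% in either direction. The median there was 0.14 (0.089 without AAV-GFP replicate 2), 46 of 47 were above 0 (50.2% of all genes), and 23 had an unadjusted p under 0.05 with the AAV-GFP value higher (9.59% of all genes). Between AAV-SIRT3 and AAV-GFP 0 of 47 passed (limma), against 0.036% of all genes called higher, 0.0771% lower and 0.113% in either direction, and 0 of 47 had groups that did not overlap (0.37% of all genes). The median was 0.16, 46 of 47 were above 0 (48.6% of all genes) and 29 had an unadjusted p under 0.05 with AAV-SIRT3 higher (8.13% of all genes). In that comparison edgeR called 0 of the 47 (0.0463% of all genes called higher) and DESeq2 8 (0.813%), and limma called 26 without AAV-GFP replicate 2, when 2.36% of all genes were called higher. The 3 comparisons share libraries, so their values are set side by side and are not independent of each other.

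**Figure D1:**
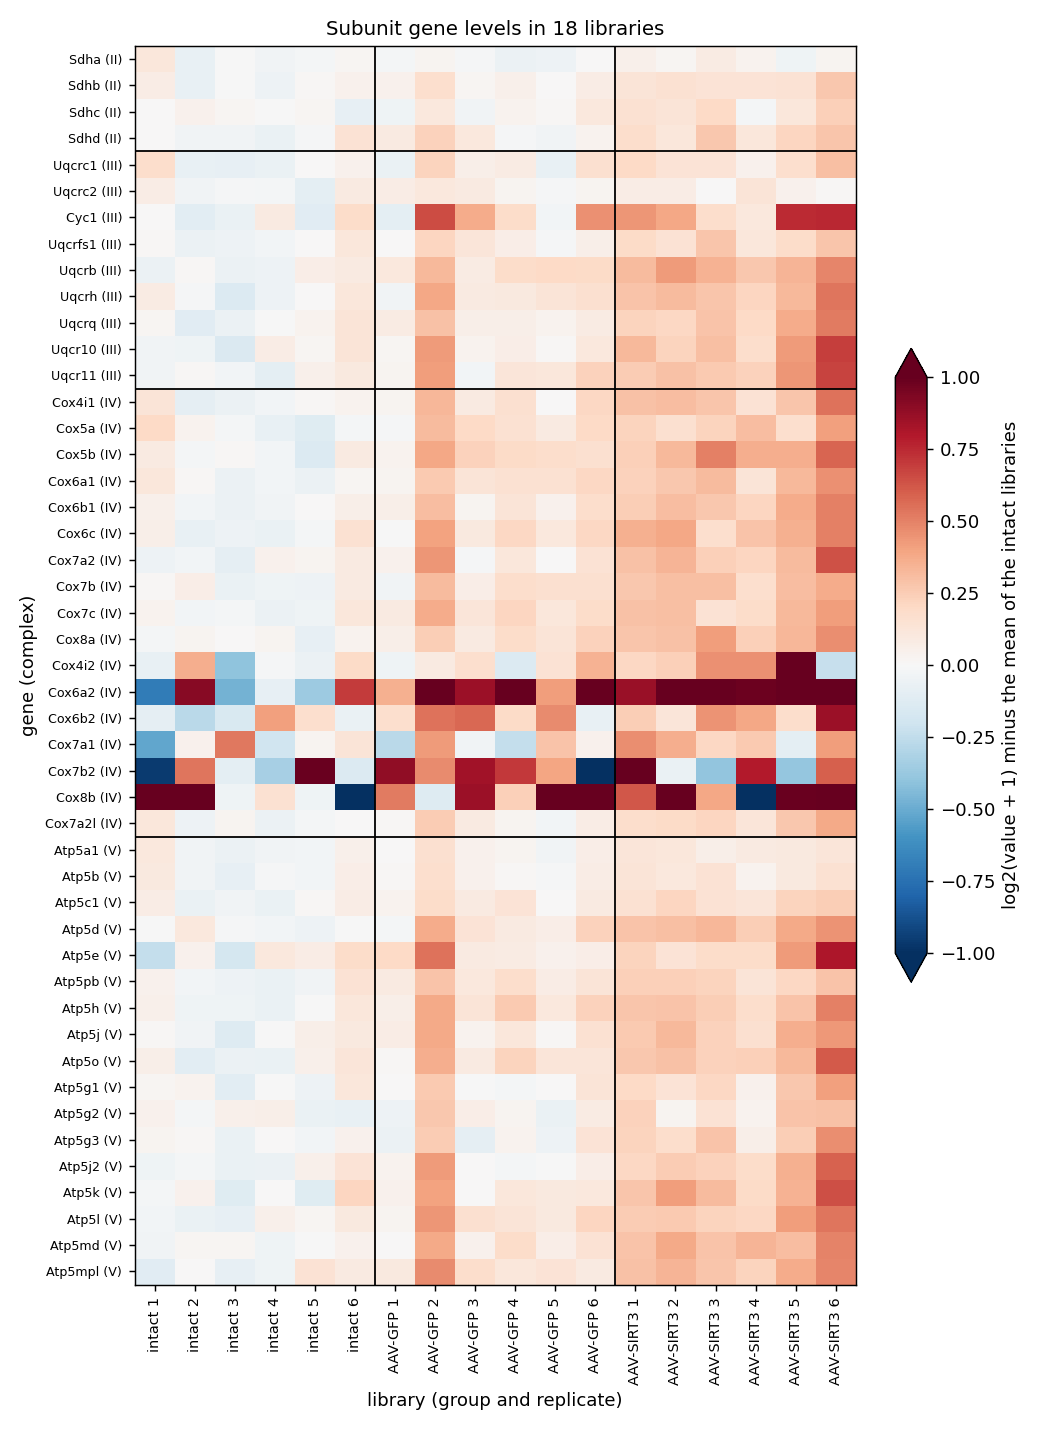
Level of the 47 tested subunit genes (rows, grouped by complex) in the 18 libraries (columns), as log2(value + 1) minus the mean of the 6 intact libraries, with the colour scale ending at -1 and 1. Rows are mostly pale in intact libraries and red in AAV-SIRT3 libraries, AAV-GFP replicate 2 and AAV-SIRT3 replicate 6 are the darkest columns of their groups, and the sparse isoforms of complex IV scatter in every group.

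By library, the median of the 47 genes relative to the intact mean ran from -0.058 to 0.089 in intact, from 0.030 to 0.32 in AAV-GFP and from 0.18 to 0.47 in AAV-SIRT3 libraries on the log2 scale. No AAV-SIRT3 library overlapped the intact ones. A single AAV-GFP library, replicate 2 at 0.32, reached into the AAV-SIRT3 range, and the next highest AAV-GFP library was at 0.13. The same order of groups held in each complex, with group means of the library medians of 0.034 with AAV-GFP and 0.15 with AAV-SIRT3 for complex II, 0.11 and 0.30 for complex III, 0.17 and 0.32 for complex IV and 0.12 and 0.28 for complex V. Without replicate 2 the AAV-GFP means were 0.014 for complex II, 0.072 for complex III, 0.13 for complex IV and 0.074 for complex V (n = 5).

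In complex II, the subunits other than the catalytic one rose in AAV-SIRT3 against intact libraries. Sdha encodes the flavoprotein that oxidises succinate and lies at chr13:74322254-74350280 on the minus strand, with 15 exons. It had 26657 to 30444 (median 27875) normalised reads in intact, 26925 to 28606 (median 27833) with AAV-GFP and 27324 to 29708 (median 28717) with AAV-SIRT3. The 3 groups overlapped throughout, and the AAV-SIRT3 difference from intact was 0.030 (SE 0.0340, adjusted p = 0.572). Sdhb, the iron-sulfur subunit, had 5733 to 6342 (median 6038) in intact, 6059 to 6756 (median 6221) with AAV-GFP and 6596 to 7273 (median 6643) with AAV-SIRT3. It rose by 0.16 (SE 0.0360, adjusted p = 0.00378), or 11.9%, and was the only complex II gene whose AAV-SIRT3 and intact libraries did not overlap. Sdhc and Sdhd form the membrane anchor that binds ubiquinone. Sdhc rose by 0.13 (adjusted p = 0.0254), with 3883 to 4223 (median 4145) in intact, 3989 to 4425 (median 4177) with AAV-GFP and 4059 to 4837 (median 4522) with AAV-SIRT3. Its call was lost in 3 of the 18 fits that left out 1 library, those without intact replicate 6, AAV-SIRT3 replicate 3 and AAV-SIRT3 replicate 6 (limma, adjusted p up to 0.0627). Sdhd rose by 0.19 (adjusted p = 0.00613), with 4253 to 4917 (median 4387) in intact, 4359 to 5223 (median 4659.6) with AAV-GFP and 4808 to 5389.7 (median 5095) with AAV-SIRT3, so the groups met at their edges. Against AAV-GFP the 4 genes were 0.048 to 0.12 higher in AAV-SIRT3 and none passed (adjusted p from 0.204 to 0.522). AAV-GFP against intact gave -0.018 for Sdha and 0.029 to 0.070 for the other 3, with adjusted p from 0.380 to 0.816.

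Complex III showed an even rise of its small subunits. Of its large core proteins, Uqcrc2 differed little and Uqcrc1 rose with a call that was lost in some fits. Uqcrc1 and Uqcrc2 encode the core proteins that face the matrix. Uqcrc2, 1896 bases long, had 8692 to 9850.0 (median 9176) normalised reads in intact, 9199 to 9962 (median 9609) with AAV-GFP and 9302 to 10118 (median 9667) with AAV-SIRT3, overlapping in every comparison. Its differences were 0.056 from intact (adjusted p = 0.264) and 0.0050 from AAV-GFP (adjusted p = 0.961). Uqcrc1 rose by 0.16 against intact (adjusted p = 0.0354), a call lost in 7 of the 18 fits that left out 1 library, those without intact replicates 2, 3, 4 or 5 or AAV-SIRT3 replicates 1, 5 or 6 (adjusted p up to 0.0868), and after removal of the length trend described below (0.11, adjusted p = 0.0815). Uqcrfs1, the Rieske iron-sulfur protein, rose by 0.20 (SE 0.0420, adjusted p = 0.00298). Cyc1, cytochrome c1, which hands electrons to cytochrome c, lies at chr15:76343523-76346260. It had 9120.1 to 11171 (median 9636) in intact, 9193 to 15512 (median 11981) with AAV-GFP and 10587 to 16589 (median 13104) with AAV-SIRT3. Its spread was far wider in the AAV groups than in the intact group, with SDs of 821, 2426 and 2568 normalised reads. The rise from intact to AAV-SIRT3 was 0.43 (SE 0.118, adjusted p = 0.0128), the largest in complex III, and with the thalamus markers as a covariate it was 0.43 (adjusted p = 0.0616). AAV-SIRT3 replicates 5 and 6 and AAV-GFP replicate 2 held the 3 highest Cyc1 values, at 16478, 16589 and 15512.

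All 5 small subunits of complex III rose in AAV-SIRT3 against intact libraries without overlap, by 0.30 to 0.36. Uqcrb, a subunit near the ubiquinone site, lies at chr13:66900617-66905378 on the minus strand. It had 3301 to 3653 (median 3393) in intact, 3648 to 4299 (median 3921) with AAV-GFP and 4150.0 to 4809 (median 4365) with AAV-SIRT3. The AAV-SIRT3 libraries were the highest and the AAV-GFP libraries lay between them and the intact ones, touching both. Uqcrb rose by 0.36 against intact (SE 0.0446, adjusted p = 0.000157) and by 0.18 between AAV-GFP and intact (SE 0.0446, adjusted p = 0.0387, higher in 35 of 36 pairs). The call of the second difference was lost in 8 of the 18 fits that left out 1 library, those without intact replicates 1, 3, 4 or 5 or AAV-GFP replicates 2, 4, 5 or 6 (adjusted p up to 0.0971). It was also lost with no filter on low values (adjusted p = 0.0747), with only the compared groups in the fit (adjusted p = 0.0637) and with the thalamus covariate (0.16, adjusted p = 0.246). Uqcr10, a short subunit near the membrane, had 3025 to 3657 (median 3325) in intact, 3372 to 4483 (median 3458) with AAV-GFP and 3768 to 5389 (median 4147) with AAV-SIRT3. Its difference between AAV-SIRT3 and AAV-GFP, 0.25 (SE 0.0768, adjusted p = 0.159), was among the largest of any subunit gene and did not pass. Uqcrh, the hinge protein that helps cytochrome c dock, rose by 0.32, Uqcrq by 0.30 and Uqcr11 by 0.36 against intact (adjusted p from 0.00120 to 0.00214).

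Complex IV has subunits with a usual isoform and, for several, an alternate isoform known from particular tissues. The 10 usual isoforms all rose in AAV-SIRT3 against intact libraries, by 0.25 to 0.40 with a median of 0.31, and 9 of the 10 showed no overlap. Cox8a, a small subunit of the inner membrane, lies at chr19:7215153-7217616 on the minus strand. It had 9853 to 10657 (median 10549) in intact, 10854 to 12347 (median 11609.7) with AAV-GFP and 12299 to 14398 (median 12955) with AAV-SIRT3. Every AAV-GFP library was above every intact library, the only subunit gene of which that held (0.874% of all genes), and the AAV-SIRT3 range overlapped the AAV-GFP range in its lowest library. Cox8a rose by 0.34 against intact (SE 0.0417, adjusted p = 0.000157), sharing the smallest adjusted p of all subunit genes with Uqcrb. Its differences were 0.16 between AAV-GFP and intact (adjusted p = 0.0536) and 0.18 between AAV-SIRT3 and AAV-GFP (adjusted p = 0.0848), where it had the smallest adjusted p of the 47. Cox5b, a zinc-binding subunit at chr1:36691449-36693681, had 6681 to 7821 (median 7337) in intact, 7519 to 9601 (median 8339) with AAV-GFP and 8681 to 11006 (median 9460.3) with AAV-SIRT3 and rose by 0.40 against intact (SE 0.0577, adjusted p = 0.000460). A pseudogene row, Cox5b-ps, averaged 665 normalised reads, so reads of the pair may have been split or shared.

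Cox4i1, the largest nuclear subunit, had 16938 to 19746 (median 17897) in intact, 18075 to 22742 (median 19678) with AAV-GFP and 19942 to 26286 (median 21999.7) with AAV-SIRT3. It rose by 0.31 against intact without overlap (adjusted p = 0.00164), and its difference from AAV-GFP was 0.17 (adjusted p = 0.201). Cox6a1 had 8884 to 10025 (median 9204) in intact, 9448 to 11122 (median 10295) with AAV-GFP and 10119.5 to 12736 (median 11348) with AAV-SIRT3, and rose by 0.29 (adjusted p = 0.000761). Cox6b1, which faces the intermembrane space and bridges the dimer, had 8764 to 9512 (median 9044), 9312 to 11275 (median 9747) and 10585 to 12903 (median 11156) in the same order and rose by 0.32 (adjusted p = 0.000581). Cox7a2 had 4706 to 5333 (median 5016) in intact, 4979.7 to 6784 (median 5288) with AAV-GFP and 5824 to 7795 (median 6174) with AAV-SIRT3 and rose by 0.34 (adjusted p = 0.00226). In all 4 genes the AAV-SIRT3 libraries lay above the intact ones, and the AAV-GFP range reached into both. Cox6c rose by 0.34, Cox7b by 0.29 and Cox7c by 0.28, without overlap (adjusted p from 0.000761 to 0.00117). Cox5a, which rose by 0.25 (adjusted p = 0.00451), was the usual isoform whose groups overlapped. Cox7a2l, a relative of Cox7a2 that joins complexes III and IV into supercomplexes, rose by 0.23 without overlap (adjusted p = 0.00264).

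**Figure D2:**
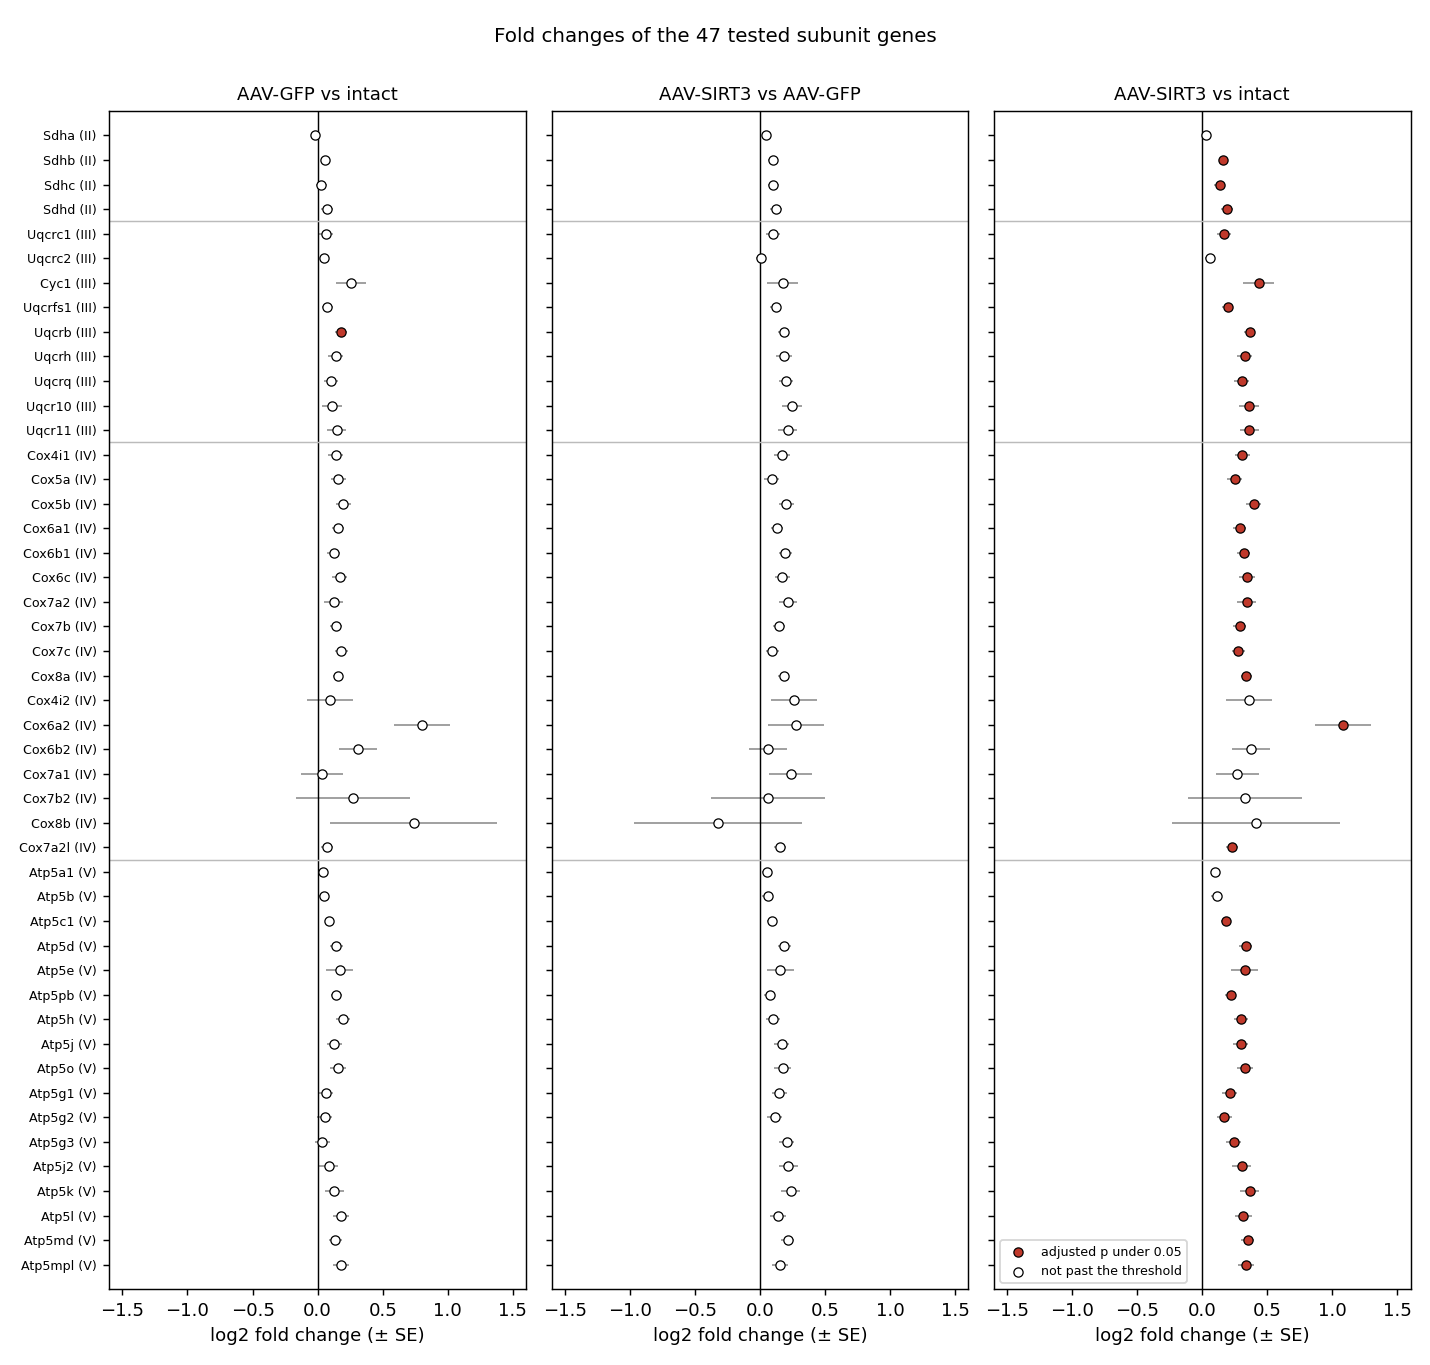
Log2 fold change (points) with its standard error (bars) of the 47 tested subunit genes in each of the 3 comparisons, on the log2(value + 1) scale; filled points have an adjusted p under 0.05 (limma, over all genes). Nearly all points lie right of 0 in every panel, with 1 filled in AAV-GFP against intact, 0 in AAV-SIRT3 against AAV-GFP and 38 in AAV-SIRT3 against intact.

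In complex V, all subunit genes but those of the large alpha and beta subunits rose in AAV-SIRT3 against intact libraries. The F1 head holds the alternating alpha and beta subunits around the gamma shaft. Atp5a1 (alpha) had 49229.8 to 55247 (median 50198) normalised reads in intact, 50053 to 57232 (median 52603) with AAV-GFP and 53449 to 55923 (median 55212) with AAV-SIRT3. Atp5b (beta, chr10:128083273-128090391) had 66552 to 75238 (median 69247) in intact, 69657 to 79267 (median 71751) with AAV-GFP and 71953 to 78376 (median 76298) with AAV-SIRT3. Their AAV-SIRT3 libraries lay in the upper part of the intact range or above it, and the differences of 0.10 (SE 0.0375, adjusted p = 0.0578) and 0.11 (SE 0.0403, adjusted p = 0.0551) did not pass. Both passed with DESeq2 and with the length trend removed, and in 2 (Atp5a1) and 4 (Atp5b) of the 18 fits that left out 1 library. The other F1 subunits rose, Atp5c1 (gamma) by 0.18, Atp5d (delta) by 0.33 and Atp5e (epsilon) by 0.33. Atp5e overlapped between groups (adjusted p = 0.0294) and was not called in 4 of the 18 fits with 1 library left out, those without intact replicates 1 or 3 or AAV-SIRT3 replicates 5 or 6 (adjusted p up to 0.0702).

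The peripheral stalk holds the F1 head still while the rotor turns. Its 4 subunits rose by 0.22 (Atp5pb), 0.30 (Atp5h), 0.29 (Atp5j) and 0.33 (Atp5o, the oligomycin sensitivity protein), with adjusted p from 0.00129 to 0.00164. The c subunit, which forms the rotor ring, is encoded by 3 genes whose mature proteins are the same. Atp5g1 had 5762 to 6697 (median 6236) in intact, 6108 to 7453 (median 6215) with AAV-GFP and 6404 to 8262 (median 7137) with AAV-SIRT3 and rose by 0.21 (adjusted p = 0.0115). Atp5g2 had 2712 to 2961 (median 2879), 2720.0 to 3439.5 (median 2944) and 2901 to 3493 (median 3245) in the same order and rose by 0.17 (adjusted p = 0.0374). This call was lost in 7 of the 18 fits that left out 1 library, those without intact replicates 2, 5 or 6 or AAV-SIRT3 replicates 1, 3, 5 or 6, with adjusted p from 0.0164 to 0.0914. Atp5g3 had 8630.4 to 9328 (median 9095), 8479 to 10774 (median 8968) and 9417 to 12439 (median 10635) and rose by 0.24 without overlap (adjusted p = 0.00624). Its difference between AAV-GFP and intact was 0.036 (adjusted p = 0.787), so most of its distance from intact lay between the AAV groups, where it was 0.21 (adjusted p = 0.127). The difference between these steps was not tested.

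All 5 small membrane subunits of ATP synthase rose in AAV-SIRT3 against intact libraries, by 0.30 to 0.36. Atp5k, which helps ATP synthase form dimers, had 2643 to 3354 (median 2866) in intact, 2897 to 3816 (median 3095) with AAV-GFP and 3295 to 4503 (median 3626) with AAV-SIRT3 and rose by 0.36 (SE 0.0730, adjusted p = 0.00198, higher in 35 of 36 pairs). Atp5md, a small protein needed to keep ATP synthase in place (chr19:47083464-47090647, minus strand), had 4955 to 5257 (median 5141) in intact, 5113 to 6634 (median 5498) with AAV-GFP and 6227 to 7200.2 (median 6408) with AAV-SIRT3. Its intact values were tightly grouped and all AAV-SIRT3 values were higher, a rise of 0.35 (SE 0.0509, adjusted p = 0.000460). Only AAV-GFP replicate 2, at 6634, lay inside the AAV-SIRT3 range. Without that library Atp5md was 0.26 higher in AAV-SIRT3 than in AAV-GFP (adjusted p = 0.00368), the smallest adjusted p of the 26 genes then called. With AAV-GFP replicate 2 and AAV-SIRT3 replicate 6 both left out it was 0.23 (adjusted p = 0.00672), and 17 of 47 were called (0.895% of all genes called higher). Atp5l rose by 0.32, Atp5j2 by 0.30 and Atp5mpl by 0.33 against intact (adjusted p from 0.00128 to 0.00531).

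The 26 genes called between the AAV groups without AAV-GFP replicate 2 were spread over the complexes. They included Sdhb and Sdhd of complex II, Uqcrfs1 and all 5 small subunits of complex III, 7 usual isoforms of complex IV with Cox7a2l, and 10 genes of complex V. Sdha at 0.057 and Uqcrc2 at 0.015 did not pass (adjusted p = 0.367 and 0.851).

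The size of the rise went with transcript length within these genes. Across the 47, Spearman's correlation of the fold change between AAV-SIRT3 and intact libraries with transcript length was -0.59, against -0.26 over the 19020 tested genes with a length. The 33 genes with transcripts of up to 1000 bases had a median of 0.33 and 28 of them rose, while the 14 longer genes had a median of 0.17 and 10 rose. Sdha, Sdhc, Atp5a1, Atp5b and Uqcrc2, the 5 longest, also had the 5 smallest differences. Among all 2437 tested genes with such short transcripts, 18.1% were called higher and the median was 0.087. Short transcripts were thus higher in general, by less than the short subunit genes. Libraries differed in this trend. The correlation across genes of each library's level, relative to the gene's mean, with transcript length ran from 0.092 to 0.19 in intact, from -0.32 (replicate 2) to 0.12 in AAV-GFP and from -0.32 (replicate 6) to -0.010 in AAV-SIRT3 libraries. RNA was selected by its poly-A tail, and the labels give only a lower limit of RNA integrity for all libraries, so RNA quality per library was not tested. When a smooth trend of each library with length and GC content was removed, 39 of 47 genes rose in AAV-SIRT3 against intact with a median of 0.29, and 17.4% of all genes were then called higher (3301 of 4387 called, against 2206 of 4214 before). Against AAV-GFP 6 of 47 rose (185 of 229 genes called were higher, against 7 of 22). Within the 47 genes the correlation with length stayed at -0.58, and over all genes it came to -0.073.

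**Figure D3:**
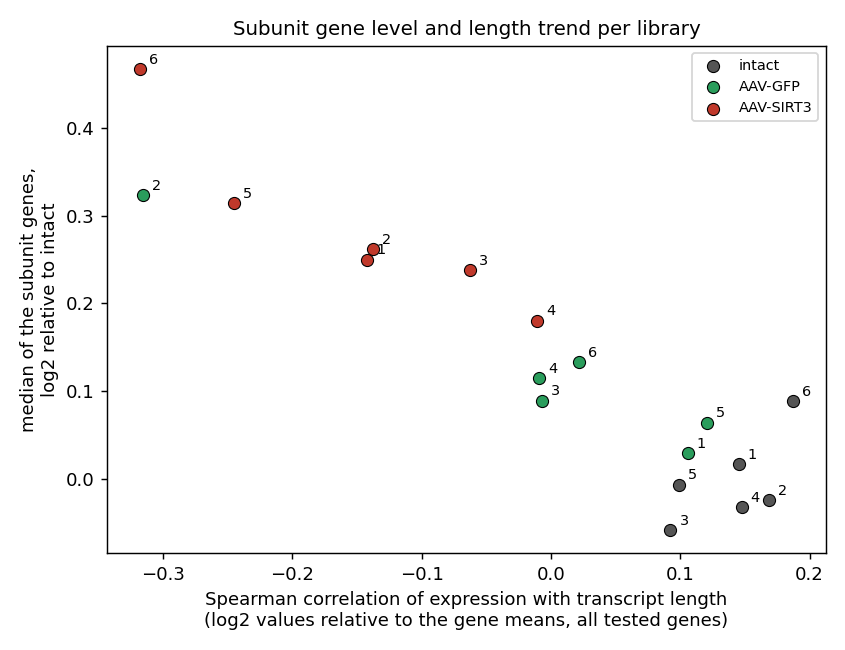
Median log2 level of the 47 subunit genes relative to the intact mean (vertical) against the Spearman correlation of each library's relative expression with transcript length over all tested genes (horizontal), 1 point per library, numbered by replicate. Intact libraries lie at the lower right, AAV-SIRT3 libraries between -0.32 and -0.010, and AAV-GFP replicate 2 lies among the AAV-SIRT3 libraries with a correlation of -0.32 and a median of 0.32.

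**Figure D4:**
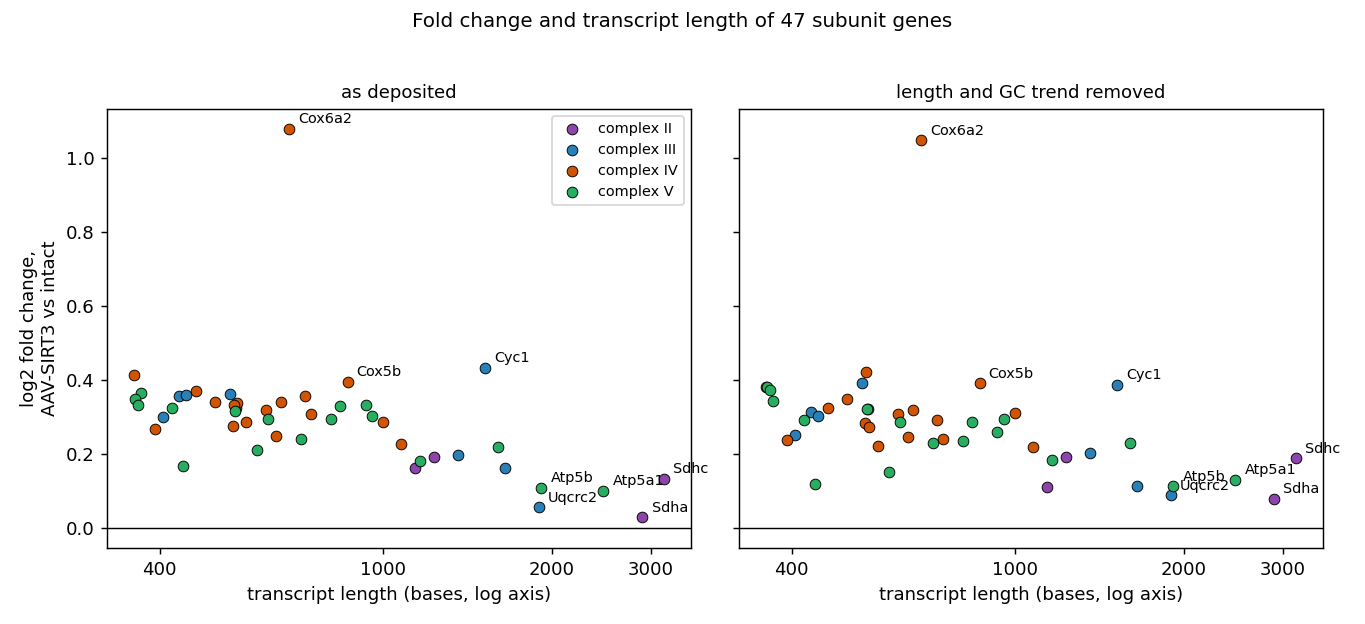
Log2 fold change between AAV-SIRT3 and intact libraries (vertical) against transcript length in bases (horizontal, log axis) for the 47 subunit genes, coloured by complex, from the deposited values (left) and after removal of each library's trend with length and GC content (right). In both panels longer transcripts mostly have smaller differences, and the correlation over the 47 genes is -0.59 on the left and -0.58 on the right.

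The alternate isoforms of complex IV were sparse and, but for Cox6a2, did not pass the threshold. Cox6a2 is the isoform of heart and skeletal muscle and is also known from some neurons, and it lies at chr7:128205435-128206387 on the minus strand inside Itgad on the opposite strand. Intact replicates 1 to 6 held 123, 375, 144, 189, 155 and 325 normalised reads of it. The AAV-GFP libraries held 255 to 423 (median 386) and the AAV-SIRT3 libraries 363 to 463 (median 436). Intact replicates 1, 3, 4 and 5 were the low ones, while replicates 2 and 6 lay within the range of the AAV-GFP group. Cox6a2 rose by 1.08 against intact (SE 0.215, adjusted p = 0.00195), the largest fold change of the 47, and differed by 0.80 between AAV-GFP and intact (SE 0.215, adjusted p = 0.0551) and by 0.28 between the AAV groups (adjusted p = 0.559). Within the intact group the thalamus markers followed the same order as Cox6a2. Their mean log2 level was 12.2 to 12.3 in intact replicates 1, 3 and 5, 12.8 in replicate 4, 13.1 and 13.0 in replicates 2 and 6, and 12.8 to 13.2 in the AAV libraries. With that level as a covariate Cox6a2 was 0.51 higher in AAV-SIRT3 than in intact libraries (adjusted p = 0.0539) and 0.22 higher in AAV-GFP (adjusted p = 0.612). With the same covariate 32 of the 47 subunit genes were called higher in AAV-SIRT3 against intact (6.06% of all genes), with a median of 0.30.

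**Figure D5:**
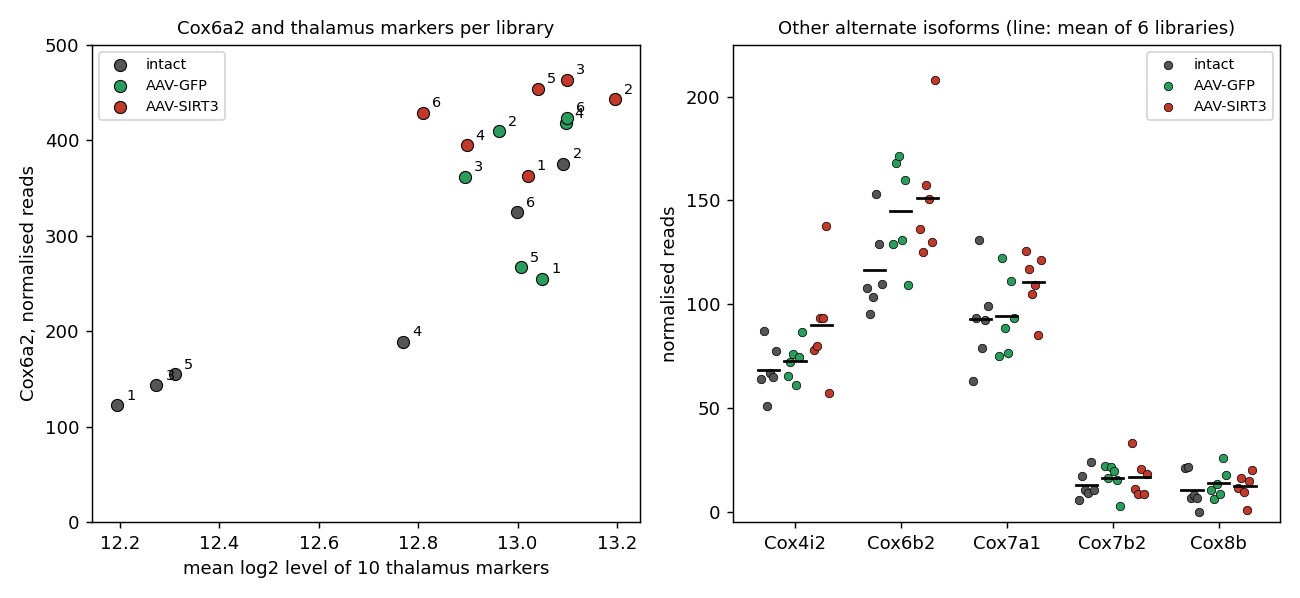
Left, normalised reads of Cox6a2 (vertical) against the mean log2 level of 10 thalamus markers (horizontal) in the 18 libraries, numbered by replicate. Right, normalised reads of 5 further alternate isoforms of complex IV per library, with the mean of each group of 6 as a line. Intact replicates 1, 3 and 5 have low thalamus markers and low Cox6a2, from 123 to 155, and the other isoforms overlap between all groups.

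Cox6b2, known from testis, had 95.2 to 153 (median 109) in intact, 109 to 171 (median 145) with AAV-GFP and 125 to 208 (median 144) with AAV-SIRT3, with a difference from intact of 0.37 (SE 0.147, adjusted p = 0.0742), which passed without intact replicate 4 (0.45, adjusted p = 0.0380). Cox4i2, an isoform linked to low oxygen, had 50.8 to 87.0 (median 66.0) in intact, 61.3 to 86.4 (median 73.4) with AAV-GFP and 57.4 to 138 (median 86.6) with AAV-SIRT3, and its difference of 0.36 (SE 0.176) had an adjusted p of 0.150. Cox7a1, the muscle isoform, had 63.1 to 131 (median 92.9), 75.1 to 122 (median 90.9) and 84.9 to 126 (median 113) in the same order and differed by 0.27 (SE 0.164, adjusted p = 0.251). Cox7b2 and Cox8b stayed below 34 normalised reads in every library, with differences of 0.33 and 0.42 (adjusted p = 0.629 and 0.687). Cox8b was the gene with a negative value between the AAV groups, -0.32 (SE 0.644, adjusted p = 0.854). The standard errors of Cox7b2 (0.438) and Cox8b (0.644) exceed the size of the rises seen in the abundant genes, so a like difference was not detectable in these 2 genes.

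Ratios of an isoform to its partner in the same library do not depend on library scaling, and are given as percentages of normalised reads per kilobase of transcript. Cox6a2 was a median 1.61% of Cox6a1 in intact libraries (1.03 to 3.37%), 3.04% in AAV-GFP (2.18 to 3.41%) and 3.28% in AAV-SIRT3 (2.80 to 3.37%). The log2 ratio was 0.79 higher in AAV-SIRT3 than in intact libraries (exact two-sided permutation p = 0.039, adjusted p = 0.325 over 18 tests, higher in 28 of 36 pairs). Atp5g1 stood at a median 81.8% of Atp5g3 in intact, 84.2% with AAV-GFP and 80.5% with AAV-SIRT3, and Atp5g2 at 50.9%, 51.1% and 48.2%. The Atp5g1 to Atp5g3 ratio differed by -0.058 between AAV-SIRT3 and AAV-GFP (exact permutation p = 0.0498, adjusted p = 0.325). Cox4i2 was 0.224 to 0.645% of Cox4i1, Cox7a1 2.19 to 4.66% of Cox7a2 and Cox6b2 1.41 to 2.44% of Cox6b1 across all libraries. Of the 18 tests over 6 pairs and 3 comparisons 0 passed after adjustment and 2 had an unadjusted exact permutation p under 0.05, where the smallest p the design allows is 0.00216.

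Genes that build or serve the same complexes were read against the 11.3% of all genes called higher and 10.3% called lower in AAV-SIRT3 against intact libraries. Of 37 tested assembly factors of complexes II to V, 13 rose and 1 fell in AAV-SIRT3 against intact libraries, with a median of 0.12. Those with the smallest adjusted p were Coa3, which stabilises newly made Cox1 (0.31, adjusted p = 0.000546), Uqcc3 (0.38, 0.00117) and Uqcc2 (0.41, 0.00119), which act in cytochrome b assembly, and Pet100 (0.32, 0.00196), which acts in complex IV assembly. Lrpprc, which stabilises mitochondrial mRNAs, was the gene that fell, by 0.14 (adjusted p = 0.00882). Its call was lost in 2 alternatives, as 0 assembly factors were called lower with the length and GC trend removed or with the thalamus covariate. Of 13 tested mobile carrier genes (cytochrome c, ubiquinone synthesis and the ATP synthase inhibitor), 3 rose: Coq7 of ubiquinone synthesis by 0.33 (adjusted p = 0.000815), Atpif1, the ATP synthase inhibitor, by 0.27 (0.00361) and Cycs, somatic cytochrome c, by 0.17 (0.0117). Of the 6 mitochondrially encoded subunits of complexes III to V, 0 passed in any comparison in the main limma fit and 0 had an unadjusted p under 0.05. The median between AAV-SIRT3 and intact was 0.066. In that comparison 1 of the 6 was called higher with the length and GC trend removed (17.4% of all genes) and 1 with DESeq2 (12.1%). Among the 6, mt-Co2, a catalytic core subunit of complex IV, differed by 0.33 in the main fit (SE 0.198, adjusted p = 0.248). The standard errors of mt-Co3 (0.344), mt-Atp6 (0.374) and mt-Atp8 (0.351) exceed the median rise of the nuclear genes. The difference between the nuclear and the mitochondrially encoded subunits was not tested. Nuclear complex I subunits (35 of 38 rose, median 0.27) and cytosolic ribosomal proteins (74 of 80 rose, median 0.29) had medians near the 0.30 of complexes II to V. In the comparison of the AAV groups 0 genes of any of these 5 lists passed with limma, with 7 of 37 assembly factors, 4 of 13 carriers, 32 of 38 complex I and 55 of 80 ribosomal genes higher in AAV-SIRT3 at an unadjusted p under 0.05 (8.13% of all genes), and edgeR likewise called 0. With the length and GC trend removed 3 complex I, 9 ribosomal and 2 assembly genes were called higher there (0.973% of all genes). DESeq2 called 5, 5 and 1 of these lists and 1 carrier gene (0.813% of all genes). Without AAV-GFP replicate 2 limma called 18 complex I, 35 ribosomal, 3 assembly and 3 carrier genes higher (2.36% of all genes).

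Some values carry limits from the annotation. In GENCODE M21 (GRCm38) 15 of the 49 genes overlap a gene on the opposite strand and 6 a gene on the same strand, 19 in all. Libraries were made with a stranded kit, but the strand setting of the counting is not given in the sources used here. How reads were counted where such genes overlap is thus not known. Cox4i1 lies wholly within Gm20388 on the same strand (5986 bases), and Cox6a2 within Itgad on the opposite strand. The overlap is 5344 bases for Cox6c with Vps13b and 2204 bases for Atp5d with Cbarp, only part of Cox6c and of Atp5d. Subunit genes have processed pseudogenes in the genome, and how reads that fit both were counted is likewise not given. Of the 12 pseudogene rows left out by the rule, 11 averaged 15.5 normalised reads or less.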

How the data were processed

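Poly-A RNA was sequenced from 18 libraries, 6 in each of 3 groups taken from the labels. The deposited table holds normalised signal. Per the submitters' processing notes, the authors used HISAT2 2.1.0, the mm10 genome build and DESeq2 1.34.0. The annotation and the strand setting of the counting are not given in the sources used here. Multiplying each deposited signal value by a library factor gave whole reads (100% of values above 0, tolerance 1e-06).

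Genes with at least 10 in at least 6 libraries were tested on log2(value + 1) with limma 3.58.1 (R 4.3.3), trend in the prior variance, all 18 libraries in a single model, and Benjamini-Hochberg adjustment over 19443 genes at 0.05. Fold changes are on this log2 scale and understate the change of low genes. Isoform ratios were compared by exact two-sided permutation tests. Alternatives ran DESeq2 1.42.0 and edgeR 4.0.16 on those reads, other scalings, pseudocounts of 0.5 and 10, other filters, a replicate block, removal of length and GC trends, a thalamus marker covariate, and fits without each library. Positions and lengths are from GENCODE M21 (GRCm38), which matched all 49 genes. Scripts were tested on simulated data.

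The members and lists were chosen with earlier results of these data known. Full statistics were given for complex II, Cyc1, the isoform pairs and the 5 largest and 5 smallest fold changes per comparison. Uqcrb, Uqcrfs1, Cox8a, Atp5md, Lrpprc and the mitochondrially encoded genes named were added after their values were seen, as were the printed promoters. From other lists at most 4 genes past the threshold were named, by adjusted p.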

Additional observations from a re-analysis of the deposited data

Results flagged for a closer look

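Within groups of 6, 17 of 144 sets of values held a library far from the other 5 by Dixon's gap test, where chance alone would give about 7.2. AAV-GFP replicate 2 was the high library in 9 of them. It held 4823 normalised reads of Uqcrq, 4483 of Uqcr10, 6784 of Cox7a2, 3734 of Atp5e, 8673 of Atp5j, 6763 of Atp5j2, 3816 of Atp5k and 4188 of Atp5mpl. Its median over the 47 subunit genes, 0.32 relative to the intact mean on the log2 scale, stood apart in the same way, with the next AAV-GFP library at 0.13. AAV-SIRT3 replicate 6 was the high library in 5, with 7273 normalised reads of Sdhb, 12071 of Uqcrh, 7795 of Cox7a2, 13236 of Atp5h and 4084.5 of Atp5o. The remaining 3 were in other libraries. Intact replicate 6 was high for Sdhd with 4917, intact replicate 2 was high for Atp5d with 6980.1, and AAV-GFP replicate 6 was low for Cox7b2 with 2.95. The genes share their libraries, so these sets are not independent of each other.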

How the results depend on the processing

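In AAV-SIRT3 against intact libraries, 32 (thalamus covariate) to 40 of the 47 genes were called under the alternatives, where 4.19 to 17.4% of all genes were called higher. When 1 library was left out the count was 34 to 40, against 8.71 to 12.2% of all genes. Against AAV-GFP, where limma called 0, the count was 8 with DESeq2 (0.813% of all genes called higher) and 6 with the length and GC trend removed (0.973%). It was 0 to 26 when 1 library was left out (0.00514 to 2.36%). Without AAV-GFP replicate 2 and AAV-SIRT3 replicate 6, a setting chosen after seeing the data, it was 17 (0.895%). Between AAV-GFP and intact, where 1 was called (0.823% of all genes called higher), it was 0 with no filter (0.215%), 4 with a mean of at least 50 (1.4%) and 7 with DESeq2 (2.32%). With only the compared groups it was 0 (0.525%), with the length and GC trend removed 2 (1.38%) and with the thalamus covariate 0 (0.18%). It was 0 to 8 when 1 library was left out (0.365 to 1.65%) and 0 without both libraries (0.612%). The cause was not tested. All genes called split into 262 higher of 388 with that trend removed, against 160 of 358.

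Same-numbered libraries did not visibly deviate together (correlations from -0.095 to 0.18 over 18 pairs, best match with the same number in 1 of 18 pairs). The samples were therefore not treated as paired by number, though a weak pairing could be missed by this check. With the replicate block 37, 2 and 0 of the 47 genes were called in AAV-SIRT3 against intact, AAV-GFP against intact and AAV-SIRT3 against AAV-GFP. Of all genes, 10.4%, 0.869% and 0.0206% were then called higher.

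Small differences changed sign. Quantile normalisation gave -0.011 for Uqcrc2 (AAV-SIRT3 against AAV-GFP) and 0.018 for Sdha (AAV-GFP against intact). The thalamus covariate gave 0.017 for Sdha and -0.14 for Cox4i2 (AAV-GFP against intact). Without both libraries Uqcrc2 was 0.024 and Cox8b -0.69 (AAV-SIRT3 against AAV-GFP), which kept their sign, and Cox7a1 was -0.044 and Atp5g3 -0.0075 (AAV-GFP against intact), and a pseudocount of 10 gave -0.0019 for the Cox7a1 to Cox7a2 ratio (AAV-SIRT3 against AAV-GFP). Leaving out 1 library, fold changes against AAV-GFP ran from -0.0088 to 0.015 for Uqcrc2, -0.035 to 0.11 for Cox6b2, -0.33 to 0.21 for Cox7b2 and -0.52 to 0.16 for Cox8b. Between AAV-GFP and intact they ran from -0.033 to 0.0049 for Sdha, -0.069 to 0.14 for Cox7a1 and -0.0075 to 0.062 for Atp5g3, and for Cox8b in AAV-SIRT3 against intact from -0.19 to 0.90. The Cox4i2 to Cox4i1 ratio ran from -0.044 to 0.26 (AAV-SIRT3 against AAV-GFP), -0.11 to 0.047 (AAV-GFP against intact) and -0.087 to 0.22 (AAV-SIRT3 against intact), and Cox7a1 to Cox7a2 from -0.035 to 0.092, -0.18 to 0.034 and -0.16 to 0.052 in that order. Cox6b2 to Cox6b1 ran from -0.0076 to 0.14 (AAV-SIRT3 against intact) and Atp5g2 to Atp5g3 from -0.0081 to 0.042 (AAV-GFP against intact).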
